A study of Mus musculus with 12 samples.

Results

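Gut homing and retention genes are described here in alloreactive mouse CD4+ T cells: Ccr9, Gpr15, Itga4, Itgb7 and Itgae, 5 of the 19938 genes measured. They were chosen by name, for the proteins they encode, with earlier results of these data known. Each had a single probe set carrying its symbol alone (10590620 for Ccr9, 10440131 for Gpr15, 10473125 for Itga4, 10432957 for Itgb7 and 10378286 for Itgae), so no choice between probe sets was needed. Splenocytes of C57Bl/6 donors, followed by the division dye CFSE, were injected into B6D2F1 mice to set off graft-versus-host disease; donors and hosts were 10 to 12 weeks old. Each of the 3 groups had 4 mice, per the labels, and 4 arrays labelled as biological replicates: hosts given TCDD at 15 µg/kg once on day 0, hosts given Cl-BBQ (2 mg/kg, on day 0 and again on day 1), and hosts given vehicle on days 0 and 1. All received the same transfer, and all were killed on day 2 (48 hr), when CD4+ cells with 2 or more divisions were sorted from spleen and lymph node. The gate thus took only cells that had already responded, and the spread between these arrays is all that the p-values measure. TCDD (a dioxin) and Cl-BBQ are both ligands of AhR, the aryl hydrocarbon receptor, which turns on target genes when bound; their doses and schedules differed, and TCDD hosts also differed from vehicle hosts in the number of injections. Whole hosts were dosed, so donor and host cells were both exposed.

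T cells that have been activated acquire receptors that steer them to particular tissues. CCR9 is the receptor of the chemokine CCL25, made by the epithelium of the small intestine, and GPR15 is a chemoattractant receptor known for bringing T cells to the large intestine. The integrin α4 chain (Itga4) pairs with β7 (Itgb7) to bind MAdCAM-1 on gut venules, or with β1 (Itgb1) to bind VCAM-1 at other sites. The αE chain (Itgae, also called CD103) pairs with β7 and binds E-cadherin, which holds lymphocytes in epithelium. Retinoic acid made by gut dendritic cells is known to raise CCR9 and α4β7, and transforming growth factor β (TGF-β) to raise CD103 and GPR15.

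Values are log2 intensities, so a difference of 1 is a doubling; brightness differs between probe sets for technical reasons, so levels are compared between groups and never between genes. Array medians lay between 7.11 and 7.24, the correlation between any 2 arrays over probe sets was 0.988 to 0.995, and the median log2 difference of all genes from vehicle was 0.00 with TCDD and 0.01 with Cl-BBQ. The CD4 T cell markers had mean log2 levels of 12.17 to 12.30 with TCDD, 12.12 to 12.36 with Cl-BBQ and 12.19 to 12.28 with vehicle. Of 11 listed, 8 were measured and 0 of these were called in any comparison. Over all genes, 1.24% were called with TCDD, 0.196% with Cl-BBQ and 0.015% between the compounds. A gene is called below where its adjusted p (limma, Benjamini-Hochberg over all genes) was under 0.05.

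Of the 5 genes, 3 rose with TCDD (Ccr9, Gpr15 and Itgae), 2 rose with Cl-BBQ (Ccr9 and Gpr15) and none fell; over all genes, 0.873% rose with TCDD and 0.145% with Cl-BBQ. The genes were picked with these results known, so the shares are a description. With TCDD the chemoattractant receptors rose by several fold and the αE chain by under 2-fold, and neither chain of α4β7 was called with either compound.

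The sequences before the 2 strongest genes are shown because both rose with each compound. RefSeq's promoter table (build GRCm38.p6) gave the 250 bases upstream of the start for Ccr9 at chr9:123766961-123767210 on the plus strand and for Gpr15 at chr16:58718873-58719122 on the minus strand, each written 5′ to 3′ with matches to any searched motif in capitals.
Ccr9: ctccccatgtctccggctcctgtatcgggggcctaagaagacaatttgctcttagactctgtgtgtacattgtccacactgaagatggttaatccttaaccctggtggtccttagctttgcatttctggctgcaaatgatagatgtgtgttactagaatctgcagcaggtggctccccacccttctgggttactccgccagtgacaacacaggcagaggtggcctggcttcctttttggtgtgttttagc
Gpr15: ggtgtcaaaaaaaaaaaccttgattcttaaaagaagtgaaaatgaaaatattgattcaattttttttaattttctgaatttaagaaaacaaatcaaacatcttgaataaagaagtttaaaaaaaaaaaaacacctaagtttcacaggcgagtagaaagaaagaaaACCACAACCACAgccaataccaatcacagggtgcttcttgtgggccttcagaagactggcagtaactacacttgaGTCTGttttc
The motifs were searched on both strands. For AhR they were the core of the dioxin response element, GCGTG, and a longer form of it, TNGCGTG, every match to which is also one to the core. For retinoic acid receptors the half-site AGGTCA was searched. For RUNX factors it was TGTGGT. For SMAD factors, which act below TGF-β, it was CAGAC. The capitals before Gpr15 are 2 adjoining TGTGGT matches in reverse, starting 85 and 79 bases before the start, and 1 CAGAC match in reverse, starting 10 bases before it. A match to TGTGGT occurred in 14.0% of all 32851 windows of 250 bases, and 2 or more in 1.27%; CAGAC occurred in 42.2%. The Ccr9 window holds none of the 5 motifs, and the AhR core (28.2% of all windows), its longer form (4.10%) and the retinoic acid half-site (14.0%) occurred in none of the 4 windows found. Of the windows not printed, that of Itga4 held 1 TGTGGT and 1 CAGAC, and that of Itgb7 held 2 CAGAC. Itgae was not in the table. These are letters in a short window and say nothing of binding here.

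Ccr9, the receptor for the chemokine of the small intestine, had the second largest increase of all 19938 genes with TCDD and the largest with Cl-BBQ. It read 9.78, 10.25, 10.56 and 10.76 in TCDD replicates 1 to 4, 8.61, 10.01, 8.97 and 10.23 in Cl-BBQ replicates 1 to 4, and 7.97, 8.20, 7.07 and 7.07 in vehicle replicates 1 to 4. All TCDD and all Cl-BBQ arrays lay above all vehicle arrays, whereas Cl-BBQ replicates 2 and 4 lay within the TCDD range and replicates 1 and 3 lay below it. Vehicle arrays also fell apart, with replicates 1 and 2 above replicates 3 and 4, and the latter lay below the lowest array median (7.11). The means were 10.33 ± 0.43 with TCDD, 9.46 ± 0.79 with Cl-BBQ and 7.58 ± 0.59 with vehicle (SD, n = 4 each). The log2 difference from vehicle was 2.75 with TCDD (95% interval 2.04 to 3.47; 6.75-fold; adjusted p = 0.000315) and 1.88 with Cl-BBQ (interval 1.16 to 2.59; 3.68-fold; adjusted p = 0.0362). In RNA of a sorted pool, more cells with a transcript and more transcript per cell cannot be told apart, here and for the genes below.

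Gpr15, the receptor for the large intestine, followed Ccr9 in size with TCDD, where its increase ranked 3 among all genes, and ranked 3 with Cl-BBQ as well. Its levels were 8.30, 9.31, 9.05 and 9.18 in TCDD replicates 1 to 4, 7.81, 8.52, 7.20 and 8.16 in Cl-BBQ replicates 1 to 4, and 6.31, 6.59, 6.21 and 6.75 in vehicle replicates 1 to 4. The vehicle arrays were all below their array medians and all lay below every treated array; TCDD replicate 1 was the only TCDD array within the Cl-BBQ range. Means were 8.96 ± 0.45 with TCDD, 7.92 ± 0.56 with Cl-BBQ and 6.47 ± 0.25 with vehicle (SD, n = 4 each). The log2 difference from vehicle was 2.50 with TCDD (interval 1.98 to 3.01; 5.64-fold; adjusted p = 3.6e-05) and 1.46 with Cl-BBQ (interval 0.95 to 1.97; 2.75-fold; adjusted p = 0.0243).

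**Figure D1:**
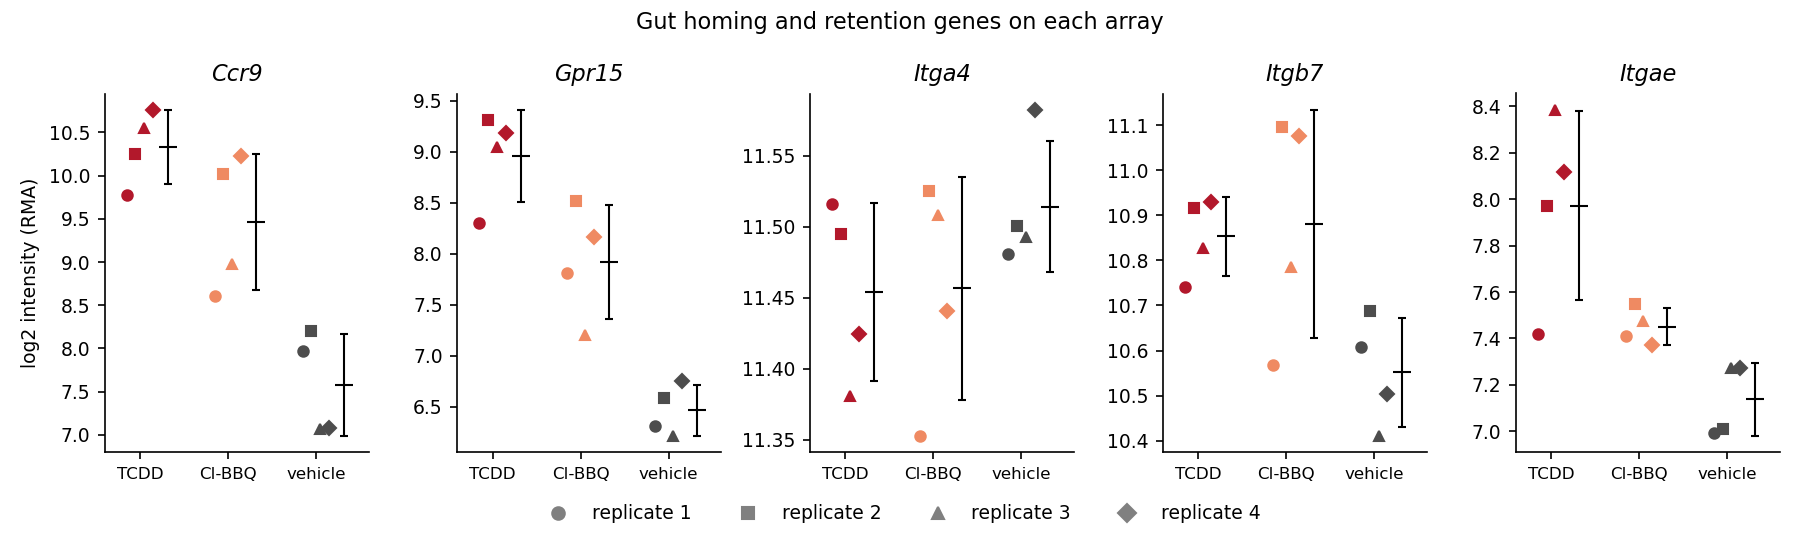
Log2 intensity (vertical axis, a separate scale per gene) of the 5 gut homing and retention genes on each of 12 arrays, grouped as TCDD, Cl-BBQ and vehicle; symbols mark replicate numbers, and bars give the mean and SD of 4 arrays. Ccr9 and Gpr15 lie higher on every treated array than on any vehicle array, Itgae separates in the same way by a smaller step, and the axis of Itga4 spans only about 0.2 log2 units.

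With Cl-BBQ the calls of both receptors depended on single arrays. Each array of the groups compared was left out in turn: both genes were called in 8 of 8 such fits for TCDD and in 3 of 8 for Cl-BBQ. Ccr9 was not called without Cl-BBQ replicate 2 (adjusted p = 0.135), Cl-BBQ replicate 4 (adjusted p = 0.0876), vehicle replicate 1 (adjusted p = 0.0668), vehicle replicate 3 (adjusted p = 0.103) or vehicle replicate 4 (adjusted p = 0.146). Gpr15 was not called without the same arrays (adjusted p = 0.0661, 0.07, 0.0771, 0.0657 and 0.0675 in that order). The sizes moved less than the p-values: the log2 difference stayed between 1.62 and 2.16 for Ccr9 and between 1.26 and 1.70 for Gpr15. Cl-BBQ replicate 3, which was the lowest of its group for Gpr15, also stood apart in Cyp1b1, a cytochrome P450 gene activated by AhR. Its Cyp1b1 was 5.93 against 7.89 to 8.24 in the other Cl-BBQ arrays and 6.25 to 6.57 with vehicle. Cl-BBQ replicate 1 had the highest Cyp1b1 of its group (8.24) but the lowest Ccr9 (8.61) and Itgb7 (10.57). A link between Cyp1b1 and the members was not tested. Without Cl-BBQ replicate 3, Ccr9 differed by 2.04 (adjusted p = 0.0359) and Gpr15 by 1.70 (adjusted p = 0.00333).

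Itgae, the CD103 chain that anchors T cells to E-cadherin, rose with TCDD. It read 7.42, 7.97, 8.38 and 8.12 in TCDD replicates 1 to 4, 7.41, 7.55, 7.47 and 7.37 in Cl-BBQ replicates 1 to 4, and 6.99, 7.01, 7.27 and 7.27 in vehicle replicates 1 to 4. TCDD replicate 1 lay among the Cl-BBQ arrays and the other TCDD arrays lay above them; all Cl-BBQ arrays lay above all vehicle arrays. Means were 7.97 ± 0.41 with TCDD, 7.45 ± 0.08 with Cl-BBQ and 7.14 ± 0.16 with vehicle (SD, n = 4 each). The log2 difference from vehicle was 0.84 with TCDD (interval 0.52 to 1.15; 1.78-fold; adjusted p = 0.00606), which ranked 42 among all increases. With Cl-BBQ it was 0.31 (interval 0.00 to 0.63; adjusted p = 0.629) and was not called, although the arrays did not overlap. Leaving out single arrays kept the TCDD call in 8 of 8 fits (highest adjusted p = 0.0314).

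Itgb7, the β chain shared by α4β7 and CD103, had a higher mean with both compounds but was not called. Its levels were 10.74, 10.92, 10.83 and 10.93 in TCDD replicates 1 to 4, 10.57, 11.10, 10.79 and 11.08 in Cl-BBQ replicates 1 to 4, and 10.61, 10.69, 10.41 and 10.50 in vehicle replicates 1 to 4. Every TCDD array lay above every vehicle array, and Cl-BBQ replicate 1 lay within the vehicle range. The log2 difference from vehicle was 0.30 with TCDD (interval 0.09 to 0.52; adjusted p = 0.269) and 0.33 with Cl-BBQ (interval 0.12 to 0.54; adjusted p = 0.32). It passed the threshold for TCDD when the fit held TCDD and vehicle arrays alone (adjusted p = 0.0379), and for Cl-BBQ without Cl-BBQ replicate 1 (adjusted p = 0.0387).

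Itga4, the α chain of the gut integrin, stayed within a narrow band. It read 11.52, 11.50, 11.38 and 11.42 in TCDD replicates 1 to 4, 11.35, 11.53, 11.51 and 11.44 in Cl-BBQ replicates 1 to 4, and 11.48, 11.50, 11.49 and 11.58 in vehicle replicates 1 to 4. The 3 groups overlapped. The log2 difference from vehicle was −0.06 with TCDD (interval −0.17 to 0.05; adjusted p = 0.841) and −0.06 with Cl-BBQ (interval −0.16 to 0.05; adjusted p = 0.815). An increase of more than 0.05 log2 units lay outside both intervals, which take no account of how many genes were tested.

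Counted over the 5 genes, arrays did not overlap and lay higher than vehicle for 4 with TCDD, where this held for 3.15% of all genes, and for 3 with Cl-BBQ, where it held for 2.27%.

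**Figure D2:**
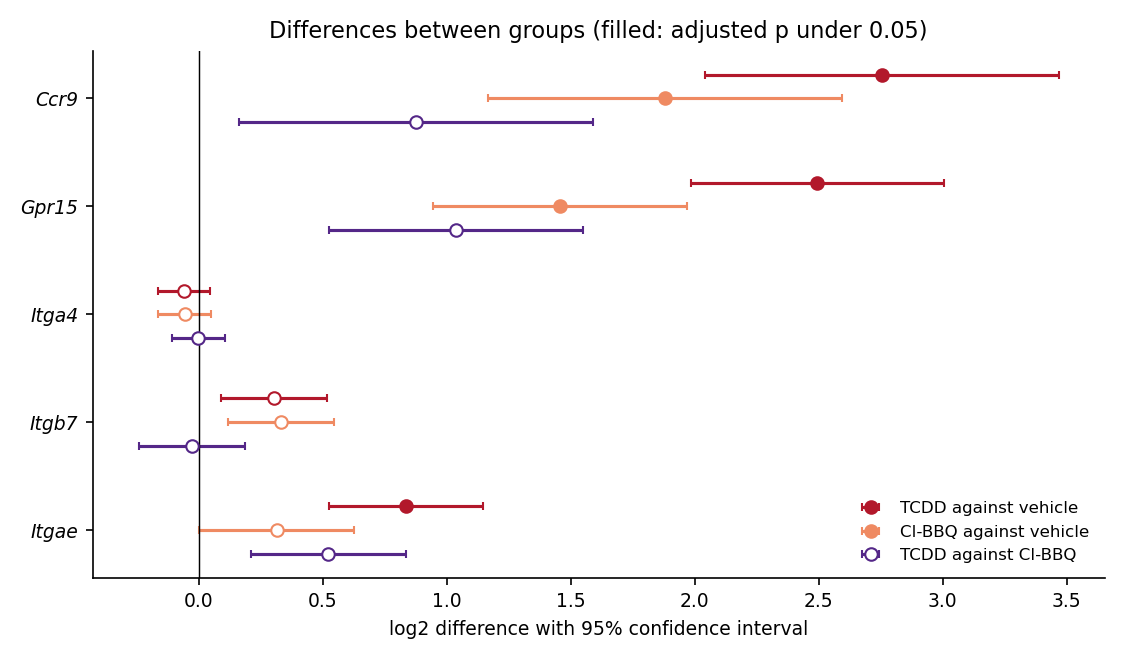
Log2 difference (horizontal axis) with its 95% confidence interval for each gene: each compound against vehicle, and TCDD against Cl-BBQ, from the fit of all 12 arrays; filled points were called. Ccr9 and Gpr15 are filled for both compounds against vehicle, Itgae for TCDD, and Itgb7 and Itga4 in no comparison.

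**Figure D3:**
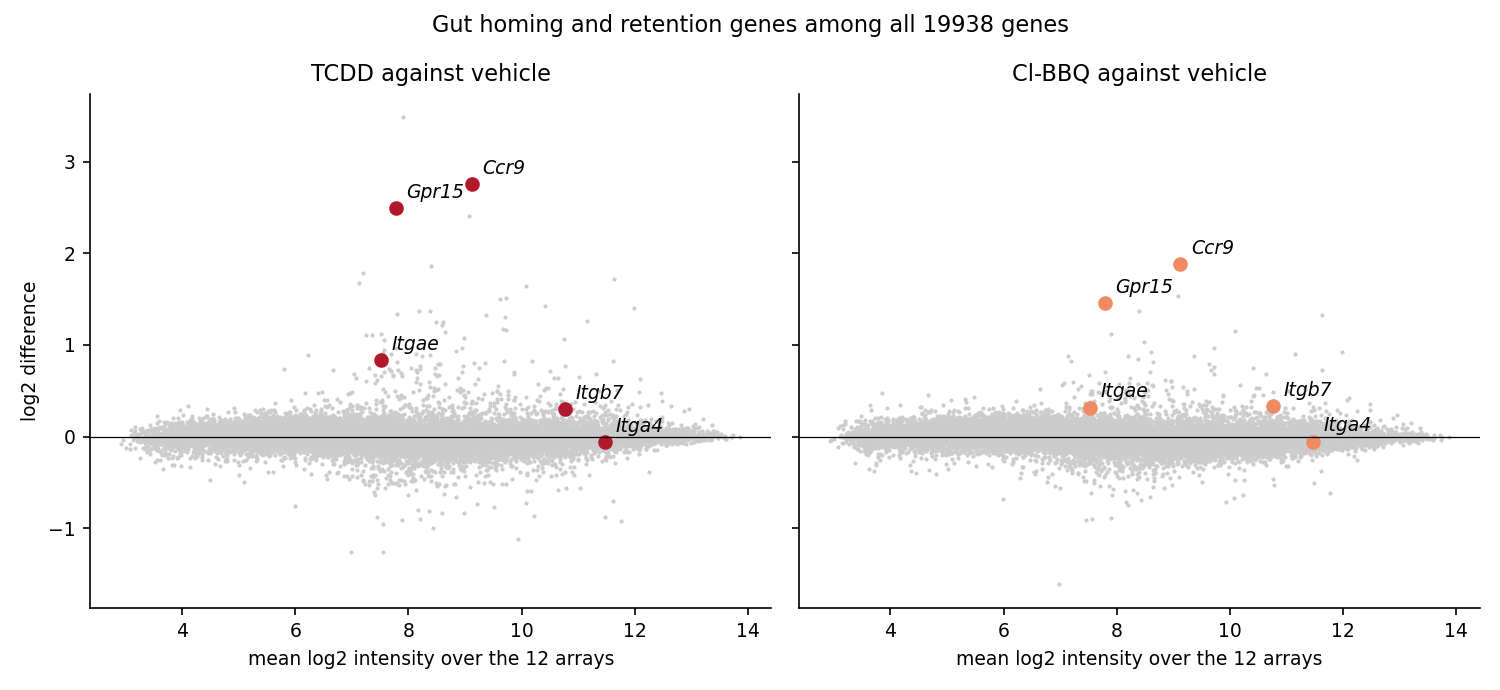
Log2 difference from vehicle (vertical axis) against the mean log2 intensity over 12 arrays (horizontal axis) for 19938 genes (grey), with the gut homing and retention genes in colour, for TCDD on the left and Cl-BBQ on the right. Ccr9 and Gpr15 lie among the few genes at the upper edge of both clouds, and Itga4 lies near 0.

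Itgb1, the β1 chain that pairs with α4 in place of β7, fell with TCDD (9.85, 9.84, 9.74 and 9.85 in replicates 1 to 4) and with Cl-BBQ (9.89, 9.92, 10.10 and 9.59) against vehicle (10.52, 10.64, 10.34 and 10.67). All treated arrays were below all vehicle arrays. The log2 difference from vehicle was −0.72 with TCDD (interval −0.93 to −0.51; adjusted p = 0.000667) and −0.67 with Cl-BBQ (interval −0.87 to −0.46; adjusted p = 0.0135). Within an array, Itgb7 minus Itgb1 averaged 1.03 ± 0.09 with TCDD, 1.01 ± 0.40 with Cl-BBQ and 0.01 ± 0.12 with vehicle (SD, n = 4 each). Only the change in this difference carries meaning, since it sets 2 probe sets of unlike brightness against each other. It was larger by 1.02 with TCDD and by 1.00 with Cl-BBQ, and the lowest treated array (0.68, Cl-BBQ replicate 1) stood above the highest vehicle array (0.09). The difference was looked at after the values of both genes were known and was given no test.

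**Figure D4:**
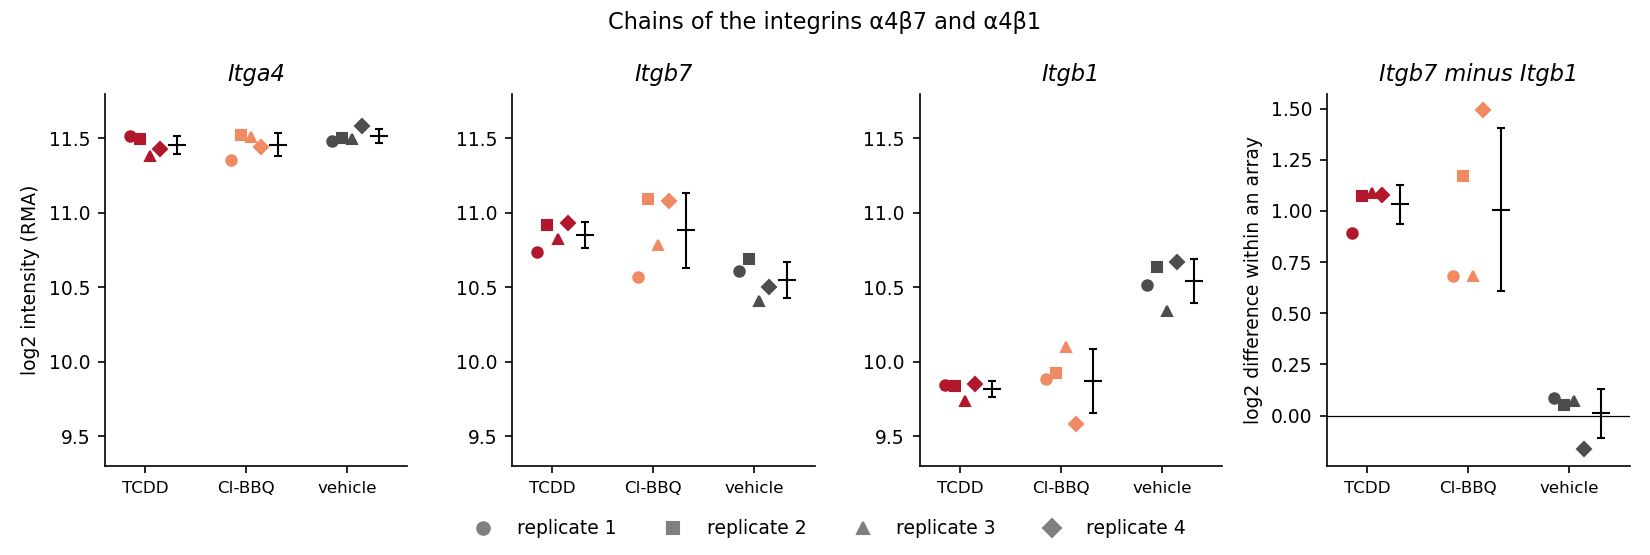
Log2 intensity (vertical axis, the same scale in the first 3 panels) of Itga4, Itgb7 and Itgb1 on each array, and in the last panel the log2 difference Itgb7 minus Itgb1 within each array, for TCDD, Cl-BBQ and vehicle; symbols mark replicate numbers, and bars give the mean and SD of 4 arrays. Itga4 overlaps between groups, Itgb1 lies lower on all treated arrays, and the within-array difference is at 0.68 to 1.49 on treated arrays against −0.16 to 0.09 on vehicle arrays.

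TCDD and Cl-BBQ were set side by side at their own doses and schedules. Of the 5 genes 0 were called (0.015% of all genes were) and 0 had arrays that did not overlap (2.04% of all genes did). Gpr15 was 1.04 log2 higher with TCDD than with Cl-BBQ (interval 0.53 to 1.55; adjusted p = 0.504). Ccr9 was 0.88 higher (interval 0.16 to 1.59) and Itgae 0.52 higher (interval 0.21 to 0.83), each at an adjusted p of 1. The integrin chains Itgb7 (−0.03, interval −0.24 to 0.19) and Itga4 (−0.00, interval −0.11 to 0.10) had differences near 0. At an unadjusted p the differences of Gpr15 (0.000564), Itgae (0.00273) and Ccr9 (0.0194) were below 0.05, as were those of 596 genes in all. Deviations from the group means correlated across genes between same-numbered TCDD and Cl-BBQ arrays at 0.606, 0.113, 0.157 and 0.365 for numbers 1 to 4. Some arrays of unlike number correlated more than some same-numbered ones. TCDD replicate 4 with Cl-BBQ replicate 2 was at 0.419, and TCDD replicate 2 with Cl-BBQ replicate 4 at 0.243. Others were negative, such as TCDD replicate 4 with Cl-BBQ replicate 1 (−0.59) and TCDD replicate 1 with Cl-BBQ replicate 2 (−0.43). The labels do not say what the numbers share. TCDD was higher in 4 of 4 same-numbered pairs for Gpr15 (by 0.49 to 1.84), Ccr9 (by 0.23 to 1.58) and Itgae (by 0.01 to 0.91). For Itgb7 it was higher in 2 of 4 and for Itga4 in 1 of 4. How many of all genes were higher in every such pair was not counted. With the replicate number as a block in the fit of all arrays, Gpr15 was called (adjusted p = 0.0348) and the other genes were not. A fit with the block and only these groups was chosen after seeing the data. In it Gpr15 (adjusted p = 0.00735) and Ccr9 (adjusted p = 0.0178) were called, and Itgae was not (adjusted p = 0.0794). The order of the group means was TCDD, Cl-BBQ, vehicle for Ccr9, Gpr15 and Itgae. The step between TCDD and Cl-BBQ was not called in the main fit for any of them. The labels give the numbers no shared meaning, so the same-numbered pairs and the blocked values are a description only.

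The 5 genes did not share a single pattern over the 12 arrays. By Pearson correlation, Ccr9 and Gpr15 had r = 0.93, and Gpr15 ranked 66 of 19937 genes in likeness to Ccr9. Itgae had r = 0.85 with Gpr15 and 0.75 with Ccr9, and Itgb7 had r = 0.87 with Ccr9 and 0.74 with Gpr15. Itga4 had r of −0.12 to −0.44 with the others. These values carry the difference between groups, which all genes that responded share.

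After the group means were taken off, Ccr9 stayed close to Itgb7 (r = 0.92) and less so to Gpr15 (r = 0.57). Itgae had r = 0.46 with Gpr15, 0.14 with Ccr9 and 0.07 with Itgb7. Itgb7 deviated with 625 of 19937 genes at an r of 0.9 or more, and Ccr9 ranked 373 in likeness to it. Counted from Ccr9, Itgb7 ranked 61 of 19937. The number of genes at such an r was not counted for the other members. The part of these shared deviations in the results was not tested. In single arrays, TCDD replicate 1 was the lowest of its group for 4 of 5 genes (all but Itga4), and Cl-BBQ replicate 2 the highest of its group for 4 of 5 (all but Ccr9). In vehicle, replicates 1 and 2 were above replicates 3 and 4 for Ccr9 and Itgb7 and below them for Itgae.

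Genes most like each of the 5 over the 12 arrays were named as a description. For Ccr9 they were Cd7 (r = 0.98), a surface protein of T and NK cells, Cd48 (r = 0.98), a ligand of CD2-family receptors, and Gm2a (r = 0.98), the GM2 ganglioside activator. For Gpr15 they were Tgfb3 (r = 0.98), a TGF-β ligand, Zswim6 (r = 0.98) and Nqo1 (r = 0.98), a quinone reductase and known AhR target. Cd7 rose with TCDD by 1.16 log2 (adjusted p = 0.00126) and with Cl-BBQ by 0.97 (adjusted p = 0.0335), and Tgfb3 by 1.12 (adjusted p = 0.000178) and 0.67 (adjusted p = 0.0421). For Itgae they were Myadm (r = 0.96), Atp2b1 (r = 0.94), a calcium pump of the plasma membrane, and Rap1b (r = 0.92), a small GTPase. Myadm rose with TCDD by 1.05 (adjusted p = 0.00054), against a difference of 0.47 with Cl-BBQ (adjusted p = 0.285). For Itgb7 they were Acss1 (r = 0.98), a mitochondrial acetyl-CoA synthetase, S1pr4 (r = 0.98), a sphingosine-1-phosphate receptor, and Ppm1j (r = 0.98), and none of these was called. For Itga4 the closest was Xlr (r = 0.87). With group means taken off, the closest were Sh3bgrl3 for Ccr9 (r = 0.98), Ppp2r5a for Gpr15 (r = 0.93), Xlr for Itga4 (r = 0.93), S1pr4 for Itgb7 (r = 0.98) and Atp2b1 for Itgae (r = 0.93).

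The ligands of these receptors are made by epithelium and vessels rather than by T cells. Of 6 measured genes of ligands and partners, 1 fell with TCDD and 1 with Cl-BBQ, Itgb1 each time, and 5 were not called, where 1.24% of all genes were called with TCDD and 0.196% with Cl-BBQ. Ccl25 differed by −0.05 with TCDD and −0.16 with Cl-BBQ, Madcam1 by 0.12 and 0.09, and Vcam1 by 0.04 and 0.06. The GPR15 ligand gene 2610528A11Rik differed by 0.17 with Cl-BBQ (adjusted p = 0.653).

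Genes of the retinoic acid pathway were not called. Of 17 measured, 0 passed the test with either compound, where 1.24% of all genes were called with TCDD and 0.196% with Cl-BBQ. At such shares a list this short would often hold no called gene. The median log2 difference of the list was 0.03 with TCDD and 0.00 with Cl-BBQ. Rara, a retinoic acid receptor, had the largest difference with TCDD, 0.38 (interval 0.12 to 0.64; adjusted p = 0.23), against 0.20 with Cl-BBQ (adjusted p = 0.732). Dhrs3, a retinal reductase, had the largest with Cl-BBQ, −0.27 (adjusted p = 0.387). Aldh1a2, an enzyme that makes retinoic acid, differed by 0.18 with Cl-BBQ (adjusted p = 0.651).

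In the list of TGF-β and RUNX genes 1 of 14 rose with TCDD and 0 fell (1.24% of all genes were called). With Cl-BBQ 0 were called (0.196% of all genes were). The gene called was Runx3, a transcription factor known for its part in CD103 expression of CD8 T cells, at 10.45 ± 0.04 with TCDD and 10.06 ± 0.09 with vehicle (1.32-fold; adjusted p = 0.00165); with Cl-BBQ it was at 10.32 ± 0.05 (adjusted p = 0.109), with no overlap between arrays. Smad3, which carries the signal of the TGF-β receptor, differed by −0.24 with TCDD (adjusted p = 0.447), and Itgb8, whose integrin activates TGF-β, by −0.20 with TCDD and −0.26 with Cl-BBQ. The median of the list was 0.01 with TCDD and 0.02 with Cl-BBQ. The list does not hold the ligand gene Tgfb3, which was called with both compounds (above).

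Among 13 transcription factors of activated T cells, 3 rose with TCDD and 0 fell (1.24% of all genes were called). With Cl-BBQ 0 were called (0.196% of all genes were). Prdm1, which encodes Blimp-1, rose 2.33-fold with TCDD (9.17 ± 0.24 against 7.95 ± 0.20; adjusted p = 0.00122), and its difference with Cl-BBQ was 0.70 (adjusted p = 0.159). Id2 rose 1.41-fold (adjusted p = 0.0332) and Gata3, a factor of Th2 and regulatory T cells, 1.32-fold (adjusted p = 0.0159). Ahr itself differed by −0.05 with TCDD and −0.18 with Cl-BBQ, and Foxp3, the regulatory T cell factor, by 0.06 and −0.15, all without a call. The median was 0.13 with TCDD and 0.04 with Cl-BBQ.

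Tissue retention and egress genes gave 1 call of 12 with TCDD (1.24% of all genes were called) and 0 with Cl-BBQ (0.196% were). Cxcr6, a chemokine receptor of tissue-resident T cells, rose 2.51-fold with TCDD (9.96 ± 0.41 against 8.63 ± 0.32; adjusted p = 0.00108), and with Cl-BBQ it differed by 0.88 (adjusted p = 0.0821). Cd69, which holds T cells in tissue by opposing the exit receptor S1PR1, differed by 0.28 with TCDD (adjusted p = 0.507), S1pr1 by 0.12 and Klf2, which drives S1pr1, by 0.08. S1pr4 differed by 0.29 with TCDD and 0.33 with Cl-BBQ, and Rgs2, a regulator of G protein signalling, by −0.29 and −0.35, without a call. The median was 0.10 with each compound.

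Receptors for other sites were a mixed group. Of 12, 3 rose with TCDD and 0 fell (1.24% of all genes were called). With Cl-BBQ 0 were called (0.196% of all genes were). The median was −0.08 with TCDD and 0.00 with Cl-BBQ. Ccr4, a receptor of skin-homing and Th2 cells, rose 2.84-fold (10.36 ± 0.27 against 8.86 ± 0.33; adjusted p = 0.000197), Ccr2, an inflammatory chemokine receptor, 2.53-fold (adjusted p = 0.00432), and Selplg, the selectin ligand PSGL-1, 1.31-fold (adjusted p = 0.012). With Cl-BBQ the log2 differences of these genes were 0.79, 0.70 and 0.35 (adjusted p = 0.0882, 0.374 and 0.0823). Ccr8 differed by −0.46 with TCDD (adjusted p = 0.27), Fut7, an enzyme that builds selectin ligands, by −0.25 (adjusted p = 0.102), and the lymph node receptor gene Ccr7 by −0.06 (adjusted p = 0.858).

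Of 15 integrin chains other than the members, Itga2 rose and Itgb1 fell with each compound and 13 were not called. Over all genes, 1.24% were called with TCDD and 0.196% with Cl-BBQ. Itga2, the α2 chain of a collagen receptor, was at 8.82 ± 0.37 with TCDD, 8.32 ± 0.20 with Cl-BBQ and 7.44 ± 0.20 with vehicle, 2.59-fold (adjusted p = 0.000165) and 1.84-fold (adjusted p = 0.0335) above vehicle. Itgb3 differed by 0.40 with TCDD (adjusted p = 0.053) and 0.38 with Cl-BBQ (adjusted p = 0.159), and Itgal, the α chain of LFA-1, by −0.21 with TCDD (adjusted p = 0.143). The median was 0.07 with TCDD and 0.03 with Cl-BBQ.

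**Figure D5:**
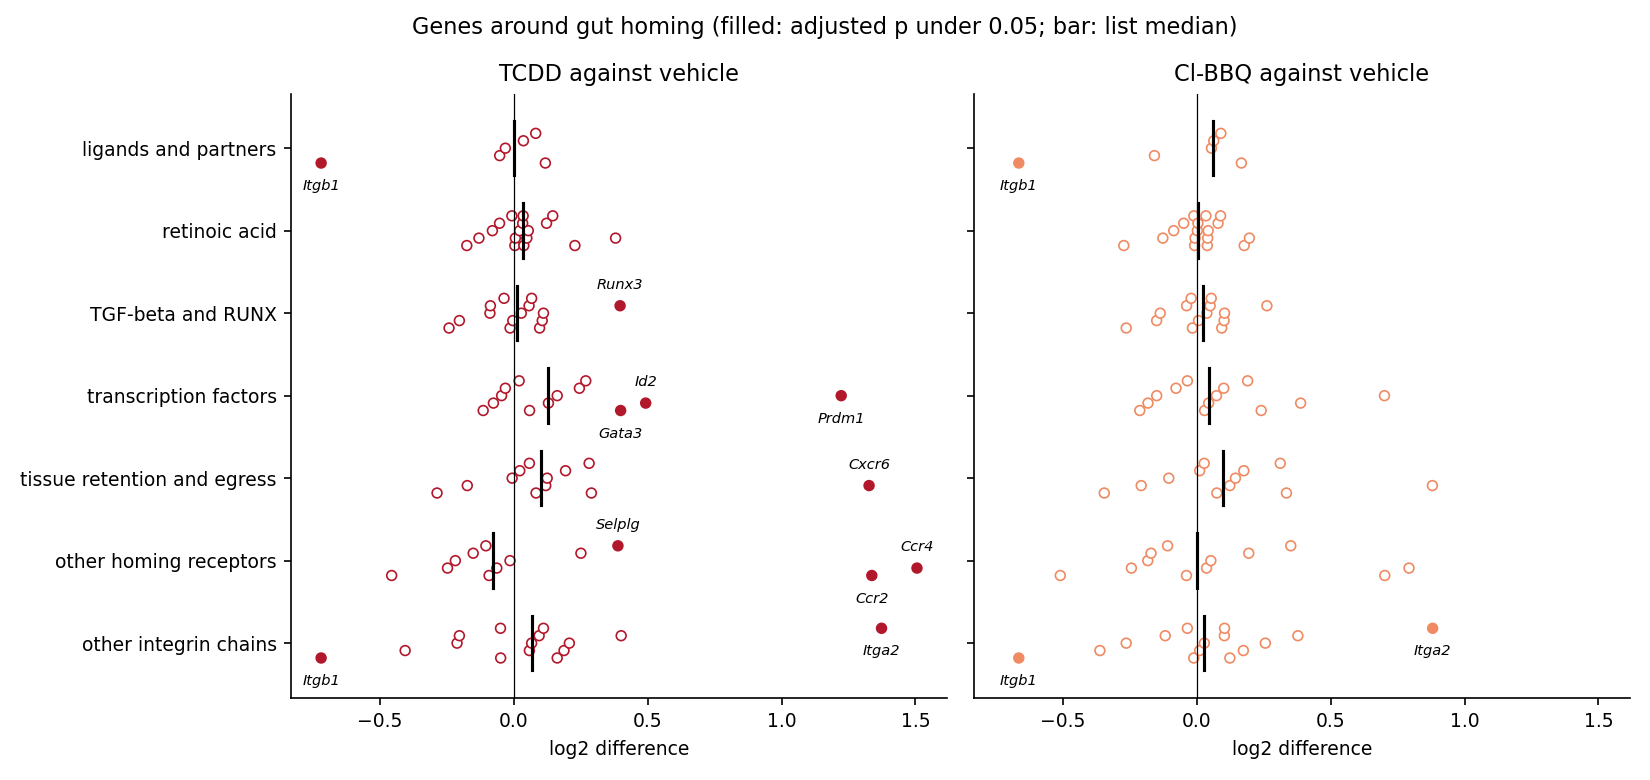
Log2 difference from vehicle (horizontal axis, the same in both panels) for each measured gene of 7 lists, with TCDD on the left and Cl-BBQ on the right; each point is a gene, filled and named where called, and bars mark list medians. List medians lie between −0.08 and 0.13, with single called genes such as Ccr4, Itga2, Cxcr6 and Prdm1 far from them.

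Other cell types can also carry these transcripts: CD8 T cells and some dendritic cells carry CD103, and B and mast cells carry β7. Of 2 CD8 markers 0 were called, with mean log2 levels of 8.37 to 8.70 with TCDD, 8.32 to 8.54 with Cl-BBQ and 8.36 to 9.18 with vehicle. Cd8a was at 7.24 ± 0.26, 7.00 ± 0.13 and 7.36 ± 0.74 in the same order of groups, and Cd8b1 at 9.75 ± 0.13, 9.86 ± 0.17 and 9.92 ± 0.16. The level of 9.18 was that of vehicle replicate 2, which also had the highest Ccr9 and Itgb7 of its group. A link between them was not tested. Of 11 myeloid and dendritic markers 0 were called (6.11 to 6.29 with TCDD, 6.23 to 6.30 with Cl-BBQ and 6.12 to 6.23 with vehicle), and of 9 neutrophil, mast cell and platelet markers 0 were called (5.58 to 5.69, 5.56 to 5.70 and 5.52 to 5.66). Of 9 B and plasma cell markers 2 fell with TCDD, Cd22 by 0.95 log2 (adjusted p = 0.00364) and Bank1 by 0.48 (adjusted p = 0.0392). The other 7 were not called. With TCDD 3 of the 9 had positive differences, such as Cd79b (0.23) and Pax5 (0.11), and the list median was −0.07. List levels were 6.47 to 6.57 with TCDD, 6.52 to 6.64 with Cl-BBQ and 6.58 to 6.79 with vehicle. Of 5 NK cell markers Eomes, which T cells also express, fell by 0.64 with TCDD (adjusted p = 0.018); the list lay at 6.59 to 6.84 with TCDD, 6.78 to 6.86 with Cl-BBQ and 6.77 to 7.14 with vehicle. No marker reads 0 on this scale, and the part of these cells in the results was not tested. No B cell, CD8 or NK marker was called higher with either compound, where only 0.873% of all genes were with TCDD and 0.145% with Cl-BBQ. At such shares lists this short would often hold no called gene. In either direction the shares of all genes called were 1.24% and 0.196%. Klrd1 differed by 0.42 with Cl-BBQ without a call (adjusted p = 0.661), the only positive difference among the 5 NK cell markers with that compound. The γδ T cell and erythroid lists had 1 measured marker each, and neither was called.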

How the data were processed

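Donor CD4+ T cells from TCDD, Cl-BBQ and vehicle hosts (4 arrays each) were grouped by the labels, which call the replicates biological. The deposited values are log2 intensities from RMA by the authors, per the submitters' processing notes; the log2 scale was read from the values (2.49 to 14.2), and software, version and genome build are not stated in the sources used. Of 35556 probe sets 21789 carried 1 gene symbol, 1621 several and 12146 were not listed in the platform's probe table; the probe set with the highest mean stood for a gene with several, leaving 19938 genes with no filter on dim genes. RMA gives no detection call, and the number of arrays limits the precision.

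All groups were fitted together with limma 3.58.1 (R 4.3.3; empirical Bayes with an intensity trend, two-sided, Benjamini-Hochberg over all genes, threshold 0.05, intervals at 95%). The script was tested on simulated data. Figures used matplotlib 3.10.9 under Python 3.11.15. Alternatives changed the normalization, array weights, probe sets, filter, arrays in the fit and a block by replicate number. Same-numbered TCDD and Cl-BBQ arrays correlated in their deviations from the group means (0.606, 0.113, 0.157 and 0.365), so blocked values stand beside that comparison. Same-numbered pairs with vehicle were at −0.070, 0.140, 0.040 and 0.182 for TCDD and −0.134, 0.087, −0.009 and −0.036 for Cl-BBQ. Of unlike numbers, Cl-BBQ replicate 1 and vehicle replicate 3 reached 0.505. The numbers are not labelled as a shared batch.

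The members and lists were chosen with earlier results of these data known. Named were the 5 members, called list genes, list genes with large differences, and the closest genes by correlation. Ahr, Foxp3, S1pr1, Klf2, Ccr7, Cd8a, Cd8b1 and Cyp1b1 were added after their values were seen. Some listed genes were not analysed here.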

Additional observations from a re-analysis of the deposited data

How the results depend on the processing

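With TCDD, 3 of the 5 genes were called in most alternatives and in each fit without a replicate (3 to 3), and 4 with only the groups compared, with or without the replicate block. With Cl-BBQ the count of 2 was 1 with only the groups compared, without an intensity trend and after median centring, where Ccr9 missed the threshold (adjusted p = 0.0867, 0.057 and 0.0505). It was between 0 and 3 when single replicates were left out; the cause was not tested. Between TCDD and Cl-BBQ the count of 0 was 1 with the replicate block and 2 with the block and only the groups compared, an alternative chosen after seeing the data; with each replicate left out it was 0 to 0. Against vehicle, the block in the fit of all arrays changed no member's call. With only the groups compared, Itgb7 was called with TCDD both without the block (adjusted p = 0.0379) and with it (adjusted p = 0.0141), and Ccr9 with Cl-BBQ was not called without the block (adjusted p = 0.0867) and was called with it (adjusted p = 0.00518). Uncalled differences near 0 between the compounds changed sign: Itga4 was 0.0022 after median centring and −0.037 to 0.022 with replicates left out, and Itgb7 −0.13 to 0.043. The other differences kept their sign. Over all genes, TCDD calls were 247, against 391 with array weights, 397 with the replicate block, 480 with the block and only the groups compared, and 150 without TCDD replicate 3. Cl-BBQ calls were 39, against 11 with only the groups compared, 13 after median centring, 18 without an intensity trend, 96 after quantile normalization, 111 with the block, 67 with the block and only the groups compared, and 3 to 61 with replicates left out. Calls between the compounds were 3, against 0 with only the groups compared, without a trend and after quantile normalization, 2 with a filter on dim genes and with every probe set on its own, 9 with array weights, 5 with the block, 53 with the block and only the groups compared, and 0 to 7 with replicates left out. The RMA summary gives no signal over background, so the limit for dim genes is unknown. This concerns Gpr15 and Itgae in vehicle, and Ccr9 in vehicle replicates 3 and 4.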
